A study of Homo sapiens with 6 samples.

Results

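The replication histone genes are the protein-coding genes named H1-, H2AC, H2BC, H3C or H4C with a number that lie between positions 25500000 and 28500000 of chromosome 6 or between 149500000 and 150000000 of chromosome 1 (hg38). The rule found 66 of the 19970 protein-coding RefSeq genes on the autosomes and X, 55 on chromosome 6 and 11 on chromosome 1. Binding regions of 2 AP-1 subunits, FOSL2 and JUNB, were examined within 5 kb of these genes. The regions came from chromatin immunoprecipitation and sequencing in HaCaT cells, an immortalised line of human skin keratinocytes grown in DMEM with fetal bovine serum and with no treatment named. The libraries were 3 for FOSL2 and 3 for JUNB, each factor with an antibody from its own supplier, and no untreated or control group is among them. Each factor had a single list of regions for its 3 libraries, which leaves the values without replicate error and the library depth unknown. Genes and regions are not replicates of a condition, and no difference below was tested. Within 5 kb of KRT5, KRT14, TP63, ITGB4 and COL17A1, genes that mark basal keratinocytes, regions of both factors were found at 5 of 5, which is not a measure of their expression. Of all protein-coding genes, 70.5% had a FOSL2 region and 58.2% a JUNB region within 5 kb.

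Replication histone genes supply the core histones H2A, H2B, H3 and H4 and the linker histone H1 when DNA is copied in S phase. They are mostly short genes without introns, their mRNAs end in a stem-loop in place of a poly(A) tail, and many H2A and H2B genes are arranged head to head with a common promoter between them. Their promoters are known for a TATA box, CCAAT boxes and, at H2B genes, an octamer element bound by OCT1 (POU2F1). AP-1 dimers of a FOS and a JUN protein recognise TGANTCA, and some AP-1 and ATF/CREB dimers recognise TGACGTCA.

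The promoters below belong to 5 of the 19 members with a JUNB summit within 1000 bp of the start. They are shown because the 2 H4 promoters lack the CCAAT and octamer letters that the 3 H2A or H2B promoters hold. The choice was made after seeing the data. It includes all 3 of the 19 members that hold TGACGTCA, so these letters are more frequent here than among the 19 (15.8%). Each is the stretch of 250 bases before the start on the gene's own strand, 5′ to 3′, from RefSeq (GRCh38.p14). Capitals mark matches on either strand to the TATA box letters TATAAA, the CCAAT box letters CCAAT, the octamer letters ATTTGCAT, the E2F letters TTTCCCGC, the AP-1 letters TGANTCA and the ATF/CREB letters TGACGTCA. Matches that overlap run together in capitals.
H4C5 (chr6:26204360-26204609, plus strand): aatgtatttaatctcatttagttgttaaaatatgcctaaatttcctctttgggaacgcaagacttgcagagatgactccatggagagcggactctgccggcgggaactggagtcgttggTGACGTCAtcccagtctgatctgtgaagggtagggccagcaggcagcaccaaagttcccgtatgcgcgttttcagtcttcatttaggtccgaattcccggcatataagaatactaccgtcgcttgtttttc
H4C8 (chr6:26285535-26285784, minus strand): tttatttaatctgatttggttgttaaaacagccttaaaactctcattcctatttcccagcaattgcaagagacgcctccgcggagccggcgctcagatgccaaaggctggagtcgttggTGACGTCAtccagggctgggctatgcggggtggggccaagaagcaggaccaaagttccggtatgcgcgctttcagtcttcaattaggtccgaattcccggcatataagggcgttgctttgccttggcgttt
H2AC16 (chr6:27865067-27865316, plus strand): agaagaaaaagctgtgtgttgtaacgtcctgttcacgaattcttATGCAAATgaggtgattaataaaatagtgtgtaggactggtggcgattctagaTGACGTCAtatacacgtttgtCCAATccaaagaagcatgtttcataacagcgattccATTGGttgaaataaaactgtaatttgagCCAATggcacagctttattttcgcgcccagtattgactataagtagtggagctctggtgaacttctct
H2BC8 (chr6:26216689-26216938, minus strand): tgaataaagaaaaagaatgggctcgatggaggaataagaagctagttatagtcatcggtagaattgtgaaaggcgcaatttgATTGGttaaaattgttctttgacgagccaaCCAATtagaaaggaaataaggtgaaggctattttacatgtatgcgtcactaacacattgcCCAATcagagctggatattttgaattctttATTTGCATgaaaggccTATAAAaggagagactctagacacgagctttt
H2BC11 (chr6:27132796-27133045, minus strand): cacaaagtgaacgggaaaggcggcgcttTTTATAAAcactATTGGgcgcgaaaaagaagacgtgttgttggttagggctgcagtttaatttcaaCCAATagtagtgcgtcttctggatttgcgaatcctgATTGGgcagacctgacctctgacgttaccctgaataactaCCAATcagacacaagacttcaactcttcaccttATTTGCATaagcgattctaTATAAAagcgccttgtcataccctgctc

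H4C5 and H4C8 both held TGACGTCA at position -131, the first base of the match counted back from the start, and H2AC16 held it at position -153. No TATAAA or CCAAT was marked in the stretches of H4C5 and H4C8, whereas H2BC8 and H2BC11 held both together with the octamer. No TGANTCA was found in any of the 5 stretches. The match in H4C5 and H4C8 sits in an identical run of 24 bases, ctggagtcgttggTGACGTCAtcc, which begins at position -144 in H4C5. This run occurred in 2 of 15811 promoters of protein-coding genes, and over the promoter table's 300 bases, 250 before and 50 after the start, H4C5 and H4C8 were 70.3% identical.

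Regions of either factor lay within 5 kb of 42 of the 66 histone genes. A FOSL2 region was near 34 members (51.5%), against 70.5% of all protein-coding genes. A JUNB region was near 35 members (53.0%), against 58.2% of all genes. Both factors were near 27 members, and at 23 of these (34.8%) a FOSL2 and a JUNB region overlapped by at least 1 bp, against 47.2% of all genes. FOSL2 regions alone were near 7 members (10.6%), against 17.3% of all genes, and JUNB regions alone were near 8 members (12.1%), against 5.05%. Both factors without an overlap were near 4 members (6.06%), against 6.0%. A FOSL2-only region was near 25 members (37.9%), against 55.4% of all genes, and a JUNB-only region near 21 (31.8%), against 28.1%. No region of either factor was near 24 members (36.4%), against 24.5% of all genes.

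A short gene has a smaller stretch within 5 kb of it than a long gene. The histone genes had a median length of 494.5 bp, against 24190 bp for all protein-coding genes. The 60 members no longer than 3 kb had a FOSL2 region in 29 cases (48.3%) and a JUNB region in 32 (53.3%). Among the 1846 other genes no longer than 3 kb, 35.7% had a FOSL2 region and 26.9% a JUNB region, and 58.9% had neither. Among the 43 other protein-coding genes of the same 2 windows, 51.2% had a FOSL2 region and 25.6% a JUNB region, and 39.5% had neither. The shares of histone genes were below those of all genes and above those of other short genes for both factors, and for FOSL2 close to that of the window neighbours. Expression in HaCaT cells was not measured, and its part in these shares was not tested.

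**Figure D1:**
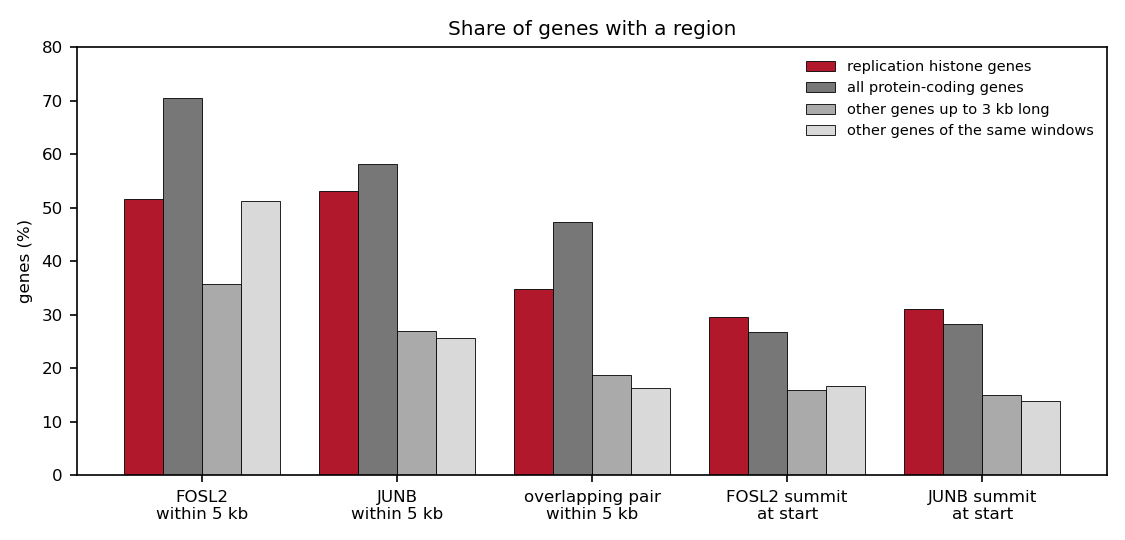
Bars give the percentage of genes with a FOSL2 region, a JUNB region or an overlapping pair within 5 kb, or with a summit within 1000 bp of the start, for histone genes and 3 other sets of protein-coding genes. For JUNB within 5 kb the bars stand at 53.0% for histone genes, 58.2% for all genes, 26.9% for other short genes and 25.6% for other genes of the windows.

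The members fell into 4 blocks separated by more than 500 kb. The first block on chromosome 6, from H2AC1 to H4C8 (25726063 to 26285534 in hg38), held 34 genes, of which 23 had a FOSL2 region and 25 a JUNB region. It contained 17 of the 23 FOSL2 and 16 of the 20 JUNB regions found near members. In the small block of 5 genes from H2BC11 to H2AC12 (27132316 to 27147562), 2 genes had a FOSL2 region and 3 had a JUNB region, with no overlap between the factors. In the block of 16 genes from H2BC13 to H2BC17 (27807479 to 27893891), 12 genes had no region of either factor, and the remaining 4, H2AC15, H2BC15, H2AC16 and H1-5, each lay near an overlapping pair. In the chromosome 1 block of 11 genes (149782689 to 149887965), 5 genes had a FOSL2 region, 3 others had a JUNB region, and no gene had both.

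**Figure D2:**
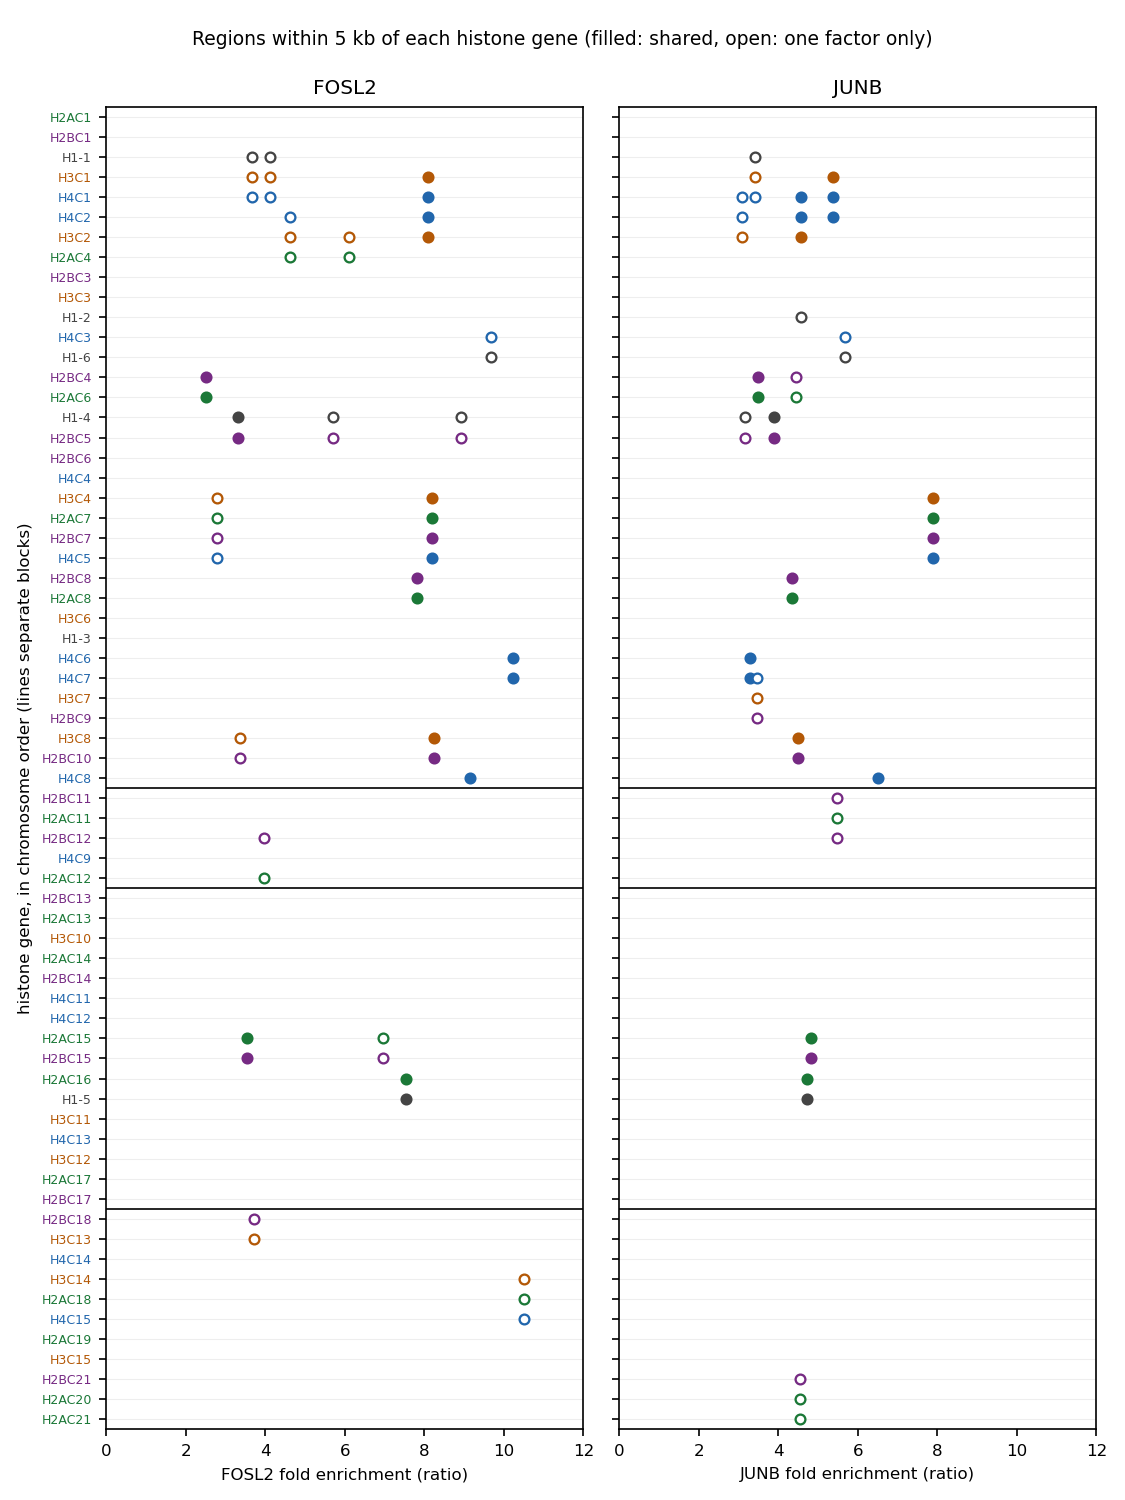
Each row is a histone gene in chromosome order, with chromosome 6 above chromosome 1, and each point is a region within 5 kb of it, placed by the authors' fold enrichment for FOSL2 (left) and JUNB (right). Filled points are shared regions, open points are regions of 1 factor only, and colours give the histone type. Rows without points are the 24 genes without a region, 12 of them in the block from H2BC13 to H2BC17.

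The 24 genes without a region were H1-3 among linker histones, H2AC1, H2AC13, H2AC14, H2AC17 and H2AC19 among H2A genes, H2BC1, H2BC3, H2BC6, H2BC13, H2BC14 and H2BC17 among H2B genes, H3C3, H3C6, H3C10, H3C11, H3C12 and H3C15 among H3 genes, and H4C4, H4C9, H4C11, H4C12, H4C13 and H4C14 among H4 genes. H2AC1 and H2BC1, a head-to-head pair known for expression in testis, lie at the outer end of the first block. A region was counted for every member within 5 kb, and several values rest on regions close to that limit. The FOSL2 region of 8.91 lay 4996 bp from H2BC5, that of 8.08 lay 4981 bp from H3C2, and the regions at H4C5 lay 4834 (FOSL2) and 4940 bp (JUNB) from H2AC7 and H3C4. Measured from its nearest member alone, the farthest FOSL2 region inside the limit was 3204 bp from H1-4 (fold enrichment 8.91) and the nearest outside was 5891 bp from H2AC6 (6.59). For JUNB these distances were 2328 bp from H4C6 (3.30) and 10227 bp from H4C8 (9.29).

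The 34 and 35 genes shared a much smaller number of places. There were 23 FOSL2 regions near members, of which 22 lay near 2 or more members, and 20 JUNB regions, of which 18 did. Shared regions, which touch a region of the other list, numbered 10 for FOSL2 and 11 for JUNB, and 13 regions were FOSL2-only. The remaining 9 of 20 JUNB regions were JUNB-only (45.0%, 95% Wilson interval 25.8 to 65.8), against 21.5% of the whole JUNB list. Most of these regions lie at gene ends, and among summits within 1000 bp of a start the JUNB-only share was 46.7% (7 of 15) at histone genes, against 48.6% at all protein-coding genes. The FOSL2-only share was 56.5% (36.8 to 74.4), against 58.9% of the whole FOSL2 list. Intervals cover counting error only, and neighbouring regions are not independent. The JUNB-only share depends on what counts as shared, and was 70.0% when 50% reciprocal overlap or summits within 100 bp were required. The 21.5% of the whole JUNB list is for an overlap of at least 1 bp. No share of the whole list is given under the stricter rules, so the 70.0% has no counterpart.

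Fold enrichment, the authors' ratio of signal over background for a region, was set against the rest of the same list. FOSL2 regions near histone genes had a median of 6.09 (range 2.50 to 10.5), against 5.56 for the whole FOSL2 list. JUNB regions had a median of 4.52 (range 3.09 to 7.88), against 4.79 for the whole JUNB list. The strongest 10% of their lists included 2 of the 23 FOSL2 regions and none of the 20 JUNB regions, whose highest value of 7.88 lay under the JUNB list's 90th percentile of 8.27. Below the list's median were 10 FOSL2 and 14 JUNB regions. Shared FOSL2 regions had a median of 7.95 and FOSL2-only regions 4.61, close to the 7.85 and 4.40 of the whole FOSL2 list. The corresponding JUNB medians were 4.57 for shared and 4.45 for JUNB-only regions, against 5.31 and 3.45 in the whole JUNB list.

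**Figure D3:**
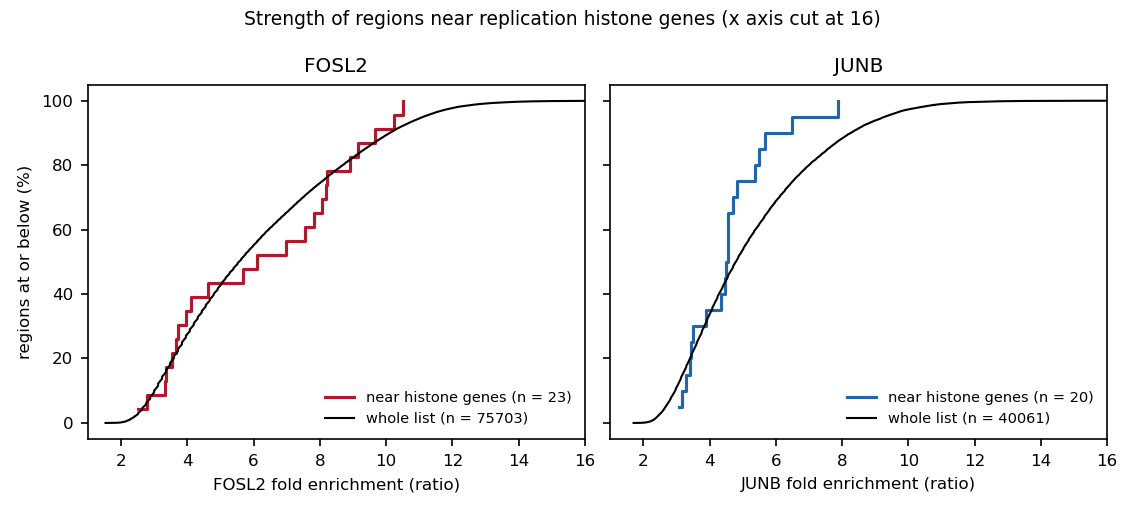
Curves give the percentage of regions at or below each fold enrichment, for FOSL2 (left) and JUNB (right), near histone genes (coloured steps) and in the whole list (black). The highest step near histone genes is at 10.5 for FOSL2 and at 7.88 for JUNB.

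Most summits lay at an end of a histone gene. Within 1000 bp of an end were 18 of 23 FOSL2 summits (78.3%) and 17 of 20 JUNB summits (85.0%), including 9 of 9 JUNB-only summits. The stretches within 1 kb of an end make up 34.6% of the 408 kb within 5 kb of a member. The share of summits at gene ends is not given for other genes, so these counts are not shown to be particular to histone genes. At the starts of all protein-coding genes 48.6% of JUNB summits were JUNB-only, against 21.5% of the whole JUNB list. FOSL2 regions at ends were weaker than those away from them, with median fold enrichments of 4.37 and 8.23. The 5 FOSL2 regions away from ends included those between H4C6 and H4C7 (10.2) and upstream of H1-4 (8.91). The JUNB medians were 4.54 at ends and 4.49 at the 3 regions away from them.

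For 61 members a RefSeq promoter gave the start and the strand. A FOSL2 summit lay within 1000 bp of the start of 18 of them (29.5%), against 26.7% of all protein-coding genes with a promoter. A JUNB summit did so for 19 (31.1%), against 28.3% of all genes, and both did for 11 (18.0%), against 15.9%. JUNB-only summits lay at 10 starts (16.4%), against 14.1%. These shares are near those of all genes. Among other genes no longer than 3 kb the shares were 15.8% for FOSL2 and 14.9% for JUNB, and among the other genes of the windows 16.7% and 13.9%.

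Of the summits within 1000 bp of a histone start, 10 of 15 lay upstream for FOSL2 (66.7%) and 10 of 15 for JUNB (66.7%), against 68.9% and 69.1% at all genes. The others lay up to 796 bp (FOSL2) and 891 bp (JUNB) downstream. Over 15 FOSL2 summits the median position was -66 bp from the nearest start, against -73 bp at the starts of all genes, and over 15 JUNB summits it was -85 bp, against -62 bp. The 250 bases before the start held 9 of the 15 FOSL2 summits (60.0%) and 10 of the 15 JUNB summits (66.7%), against 47.3% and 52.3% at all genes. FOSL2 regions at histone starts had a median fold enrichment of 3.95, against 5.03 at all starts, and JUNB regions 4.45, against 4.30.

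**Figure D4:**
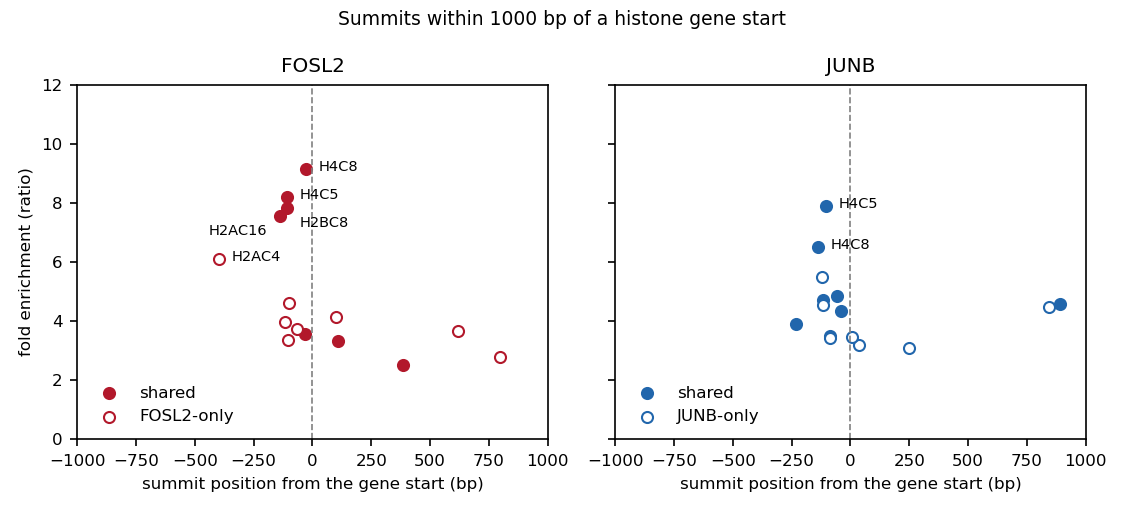
Points are summits within 1000 bp of a histone gene start, by position (negative is upstream, dashed line at the start) and fold enrichment, for FOSL2 (left) and JUNB (right). Filled points are shared and open points are regions of 1 factor only. H4C8, H4C5, H2BC8 and H2AC16 are the highest FOSL2 points, and H4C5 and H4C8 the highest JUNB points.

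Linker histone H1 binds the DNA that enters and leaves the nucleosome. Of the 6 H1 genes, 4 had a FOSL2 region and 5 a JUNB region. H1-6, a testis-type H1 gene, had a FOSL2 region of 9.67 and a JUNB region of 5.68, which did not overlap and had their summits 4815 and 4127 bp downstream of its start, next to H4C3. H1-4 lay near FOSL2 regions of 8.91, 5.69 and 3.32 and JUNB regions of 3.90 and 3.17. The JUNB region of 3.17, JUNB-only, was the 1 JUNB region at an H1 start, with its summit 35 bp downstream. At H1-5 the values were 7.55 (FOSL2) and 4.71 (JUNB) in a shared region 2411 and 2389 bp downstream of the start, which is the region at the start of H2AC16. H1-2 had a JUNB-only region of 4.56 beyond its 3′ end. H1-1 had FOSL2-only regions of 4.12, centred 101 bp into the gene, and 3.66, and a JUNB-only region of 3.41. Of the 6 H1 genes, 1 had a FOSL2 summit and 1 a JUNB summit within 1000 bp of the start.

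H2A and H2B form the dimers that flank the central H3 and H4 tetramer, and their genes often share a promoter. FOSL2 regions were near 8 of 16 H2A genes and JUNB regions near 8 of 16. Of 17 H2B genes, 8 had a FOSL2 region and 10 a JUNB region. The members with a start in the promoter table formed 10 head-to-head pairs with starts within 500 bp. Of these pairs, 5 had a JUNB summit between the starts or within 250 bp of them. A FOSL2 summit also lay there at 2 of the 5. Among all 645 head-to-head pairs of protein-coding genes, 30.7% had a FOSL2 summit, 36.1% a JUNB summit, 17.1% both and 49.8% at least 1 of them. The pair H2BC8 and H2AC8, with starts 233 bp apart, carried the strongest FOSL2 region of these promoters, 7.81, which overlapped a JUNB region of 4.34. Its promoter, printed above, held the octamer and CCAAT and no AP-1 or ATF/CREB match. The pair H2AC15 and H2BC15 held a shared region of 3.54 (FOSL2) and 4.83 (JUNB). A stronger FOSL2-only region of 6.97 had its summit 655 bp from the nearest gene end.

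The other bound pairs among those counted had a JUNB summit alone between their starts. H2BC11 and H2AC11, 248 bp apart, had a JUNB-only region of 5.48 with its summit 119 bp before the start of H2AC11, and the same region, 4986 bp from H2BC12, was the JUNB region counted for that gene. H2BC21 and H2AC20 on chromosome 1 had a JUNB-only region of 4.54 with its summit 118 bp before both starts. At H2BC4 and H2AC6 the JUNB region with its summit between the starts was 3.50. The FOSL2 region that touched it was the weakest near any member, 2.50. A stronger JUNB-only region of 4.45 lay inside H2BC4, with its summit 844 bp after the start of that gene. The pairs H2AC1 and H2BC1, H2AC7 and H2BC7, H2BC13 and H2AC13, H2AC14 and H2BC14, and H2AC17 and H2BC17 had no summit of either factor between their starts or within 250 bp of them. H2BC12 and H2AC12 were not counted as a pair, because H2AC12 has no start in the promoter table. A FOSL2-only region of 3.95 had its summit between these genes, 117 bp before the start of H2BC12 and 131 bp from an end of H2AC12.

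Among H2A and H2B genes with unshared promoters, H2AC16 had the strongest pair at its start, 7.55 (FOSL2) and 4.71 (JUNB), with summits 140 (FOSL2) and 118 bp (JUNB) before it. Its TGACGTCA has its centre 9 bp from the FOSL2 summit and 31 bp from the JUNB summit. The higher values of H2AC7 and H2BC7, 8.19 (FOSL2) and 7.88 (JUNB), belong to the regions at H4C5, whose summits are 5209 (FOSL2) and 5213 bp (JUNB) upstream of H2AC7. H2AC18 had the highest FOSL2 value of the members, 10.5, in a region centred 1574 bp before its start and without JUNB. This region also lay within 5 kb of H3C14 and H4C15. H2BC5 had the FOSL2 values of H1-4, its neighbour, up to 8.91, and H2BC10 had those of H3C8, up to 8.23. The shared regions of 3.32 (FOSL2) and 3.90 (JUNB) lay at the start of H2BC5 itself. Their summits were 109 bp after (FOSL2) and 231 bp before that start (JUNB). The FOSL2-only region of 5.69 lay inside the span of H2BC5.

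H3 and H4 form the core tetramer of the nucleosome. Of 13 H3 genes, 6 had a FOSL2 region and 5 a JUNB region. The regions with a summit at H3 starts lay below the median of their lists. H3C2 had a FOSL2-only region of 4.61 with its summit 98 bp before the start, H3C8 had 1 of 3.36 with its summit 102 bp before it, and H3C1 had a JUNB-only region of 3.41 with its summit 89 bp before it. Higher values came from farther away. The shared region between H4C1 and H4C2, with 8.08 (FOSL2) and 5.37 and 4.57 (2 JUNB regions), gave H3C1 and H3C2 their highest FOSL2 values and their highest JUNB values of 5.37 and 4.57. H3C8 had a shared region of 8.23 (FOSL2) and 4.49 (JUNB) beyond its 3′ end, 2336 and 2224 bp from its start. H3C4, which overlaps H2AC7 in RefSeq and has the same start, had 8.19 (FOSL2) and 7.88 (JUNB) from the region at H4C5.

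Of 14 H4 genes, 8 had a FOSL2 region and 7 a JUNB region, and at 6 the regions overlapped. H4C5 carried the strongest JUNB region near any member, 7.88, higher than 87.5% of the JUNB list, together with a FOSL2 region of 8.19. Their summits were 4 bp apart, 108 (FOSL2) and 104 bp (JUNB) before the start. H4C8 followed with a FOSL2 region of 9.16 and a JUNB region of 6.50, with summits 28 (FOSL2) and 136 bp (JUNB) before the start. The FOSL2 summit lay 99 bp and the JUNB summit 9 bp from the centre of TGACGTCA. At H4C5 the centre of TGACGTCA was 19 bp (FOSL2) and 23 bp (JUNB) from the summits. H4C5 and H4C8, the genes with the same run of 24 bases, had the highest JUNB values at a start. Their promoters were chosen for printing, and the run was read from them, after these values were known. The pairing of run and values is therefore no test of the sequence. Whether the run has a part in JUNB binding was not tested.

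Among the other H4 genes with a start in the promoter table, only H4C2 had a summit within 1000 bp of it, for JUNB. H4C1 and H4C3 had no start in that table. H4C3 had a FOSL2-only region of 9.67 with its summit 613 bp from the gene and a JUNB-only region of 5.68 with its summit 75 bp from an end of the gene. H4C6 and H4C7, which face each other with their 3′ ends, had a shared region of 10.2 (FOSL2) and 3.30 (JUNB) between them. H4C1 and H4C2 lay on either side of the region of 8.08 described above. H4C2 also had a JUNB-only region of 3.09, with its summit 248 bp into the gene, which was the weakest JUNB region near members. H4C15, for which RefSeq gives a span of 16753 bp, had the FOSL2 value of 10.5 at the far end of that span, away from its start.

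The promoter letters of histone genes differed by type. Motifs were searched on both strands from 250 bases before to 50 bases after the start. TATAAA letters were found in 42 of 61 members (68.9%), against 9.92% of 15811 promoters of protein-coding genes, and CCAAT in 52 (85.2%), against 36.0%. CCAAT was in every promoter of H1, H2A, H2B and H3 genes searched and in 3 of 12 H4 promoters. The octamer ATTTGCAT was found in 11 of 15 H2A and 14 of 17 H2B promoters and in none of the other types, against 1.73% of all promoters. TTTCCCGC was in 1 member, H4C7 (1.64%), against 2.12%.

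The AP-1 heptamer was scarce in these windows. TGANTCA was found in 1 of 61 members (1.64%), against 5.97% of all promoters. That member was H3C8, with the match TGATTCA at position -150, and its FOSL2 summit lay 44.5 bp from the centre of the match. TGACTCA, which is part of TGANTCA, was found in 0 of 61, against 3.83%. TGACGTCA, which is not a match to TGANTCA, was found in 9 members (14.8%), against 2.53% of all promoters. The 9 were H4C5, H4C8, H2AC16, H3C2, H2BC12, H3C14, H3C15 and the pair H2AC14 and H2BC14, which share 1 match. A FOSL2 summit lay within 1000 bp of the start of 5 of the 9, and a JUNB summit of 3 of them. TGACGTCA was held by 27.8% of the 18 members with a FOSL2 summit at the start and by 9.3% of the 43 without, and by 4.61% of all genes with such a summit. For JUNB the shares were 15.8% of the 19 members with a summit at the start and 14.3% of the 42 without, and 4.03% of all genes with such a summit. The JUNB shares with and without a summit are thus close to the 14.8% of all members searched. A match is only a description of these letters, and the genome sequence under summits outside promoters was not used.

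Some members have near-identical copies. On chromosome 1 the promoters of H4C14 and H4C15 were 100.0% identical over 300 bases, those of H2AC18 and H2AC19 99.7%, and those of H3C14 and H3C15 98.7%. On chromosome 6 those of H4C11 and H4C12 were 98.3% identical. Reads from such copies may not be told apart, and how they were placed is not given in the sources used here. H2AC18 and H3C14 had the FOSL2 region of 10.5, and their copies H2AC19 and H3C15 had none. That region lies outside the 300 bases compared, with its summit 1574 bp before the start of H2AC18 and 3116 bp before that of H3C14. Whether the sequence under it has a copy was not examined. The part of read placement in these differences was not tested.

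Histone genes outside the 2 clusters, most of them for variants made throughout the cell cycle, had FOSL2 nearby at 11 of 16 and JUNB at 12 of 16. Values given for these genes are the highest over their regions. JUNB values were highest at MACROH2A1 (11.02 for FOSL2 and 8.34 for JUNB), H3-3B (7.80 for FOSL2 and 6.47 for JUNB), H1-10 (7.97 for FOSL2 and 5.32 for JUNB), and H2AC25 and its neighbour H2BC26, which had the same JUNB value of 4.55. A JUNB summit lay within 1000 bp of the start of 10 of 13 of these genes with a promoter (76.9%), against 28.3% of all genes. A FOSL2 summit did so for 7 of 13 (53.8%), against 26.7%. For the histone transcription and mRNA processing genes these shares were 53.3% (JUNB) and 26.7% (FOSL2). For the histone chaperone genes they were 53.8% (JUNB) and 30.8% (FOSL2). For histone transcription and mRNA processing the counts were 15 of 20 genes (FOSL2) and 12 of 20 (JUNB). E2F4, an E2F repressor of the cell cycle, had 2.18 (FOSL2) and 10.8 (JUNB). ERI1, an exonuclease of histone mRNA decay, had maxima of 11.6 over 11 FOSL2 regions and 8.55 over 9 JUNB regions. LSM10, a subunit of the U7 particle, had 7.51 (FOSL2) and 6.52 (JUNB), each from 1 region. POU2F1 had maxima of 6.92 over 7 FOSL2 regions and 6.19 over 7 JUNB regions. NPAT, the coactivator of replication histone genes, had no region of either factor, and SLBP, the stem-loop binding protein, had 1 JUNB region of 3.30. Among histone chaperone genes the counts were 14 of 15 (FOSL2) and 11 of 15 (JUNB), with JUNB values of 6.19 at CABIN1, 5.96 at RBBP4, 5.54 at IPO4 and 4.67 at SSRP1. The lengths of these genes were not matched to the members, and their counts of regions within 5 kb stand beside 70.5% (FOSL2) and 58.2% (JUNB) of all genes.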

How the data were processed

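FOSL2 and JUNB were each measured in 3 libraries, and each had 1 deposited list of narrow peaks for its libraries together. Bowtie2, SAMtools 1.8, Picard 1.89, MACS2, deepTools and hg38 are named in the submitters' processing notes. The sources used here do not give the control, the overlap rule or the depth. The deposited fold enrichment is a linear ratio as the peak caller wrote it, the deposited −log10 q is its adjusted significance, and the deposited summit offset places the highest signal.

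Of 75704 FOSL2 rows 75703 lay on the autosomes or X, and of 40061 JUNB rows 40061 did. Genes were taken from RefSeq (GRCh38.p14), the coordinates of which match hg38, and starts from its promoter table. Of the listed comparison genes, H4-16 had no match by symbol. A region was near a gene when any base lay within 5 kb of its span, and shared when at least 1 bp overlapped the other list. Python 3.11.15, pandas 2.3.3, SciPy 1.17.1 and Biopython 1.88 were used, and counting of overlaps was tested on simulated regions. Members, lists and the naming rule (per histone type the 4 genes with the highest JUNB and the 3 with the highest FOSL2 value, per list the 4 highest for JUNB) were chosen with earlier results of these data known. Distance, end window, width, −log10 q and the definition of sharing were varied. Head-to-head pairs, promoter identity, motif positions, TGACTCA and strength at starts were added after seeing the data, as were the choice of printed promoters and the naming of NPAT, SLBP, H1-1 and the other members outside the rule.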

Additional observations from a re-analysis of the deposited data

How the results depend on the processing

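Of the summary values, 52 of those recomputed under other settings stayed within 1.5 times the count or within the interval of the value, and 12 did not. The 52 include counts of summits at gene ends at distances of 1 kb and 10 kb. These counts, 18 (FOSL2) and 17 (JUNB), could not change with that distance. With a distance of 1 kb, 22 members had a JUNB region. With −log10 q of at least 10, 10 JUNB summits lay at gene ends, and 5 FOSL2 and 6 JUNB regions near members were shared. With a reciprocal overlap of 50%, and likewise with summits within 100 bp, 6 FOSL2 and 6 JUNB regions were shared, 14 JUNB regions were JUNB-only, and their share was 70.0%. Both definitions of sharing are stricter by construction. Of the counts of members per histone type, 31 stayed within 1.5 times and 9 did not. No paired analysis was possible because each factor has a single list for its 3 libraries, and for the same reason no library could be left out. Depth per library is unknown, so a missing region is not shown to be missing binding.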
